A study of Mus musculus with 8 samples.

Results

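The Cyp2a and Cyp2b genes on mouse chromosome 7 encode closely related cytochrome P450 enzymes. The 9 genes described here are Cyp2a4, Cyp2a5, Cyp2a12, Cyp2a22, Cyp2b9, Cyp2b10, Cyp2b13, Cyp2b19 and Cyp2b23, taken from the count table by matching its Ensembl identifiers to these symbols in GENCODE M21. They are 9 of the 46517 genes in the table, and 7 of them had enough reads to be tested. RNA-Seq was performed on whole livers of 4 MøFoxO1-KO mice (KO26 to KO29) and 4 WT littermates (WT22 to WT25), to ask which hepatic genes differ when FoxO1 is absent from myeloid cells. All 8 mice were male, C57BL/6 and 31 weeks old. All had been placed on a NASH-inducing diet at 6 weeks of age, stayed on it for 25 weeks and were fasted for 16 hours before the liver was taken. Both groups carried FoxO1 loxP/loxP alleles. MøFoxO1-KO mice also carried Lyz2-Cre, in which the promoter of lysozyme 2 drives Cre recombinase in myeloid cells throughout the body, so deletion was not limited to macrophages of the liver and hepatocytes were not the targeted cells. WT mice carried no Cre, and no group with Cre alone or on regular chow is compared here.

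Cytochromes P450 of the CYP2 family are heme enzymes of the endoplasmic reticulum that oxidize steroids, drugs, nicotine and environmental compounds, mostly in hepatocytes. The mouse genome holds several tandem copies where humans have fewer, and the copies have taken on different control. Cyp2a4, Cyp2b9 and Cyp2b13 are known as genes with higher expression in female than in male mouse liver, a difference that follows the pattern of growth hormone release. Cyp2b10 is the classic target of the xenobiotic receptor CAR, and Cyp2a5 responds to CAR and to the oxidative stress factor NRF2.

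Total counts ranged from 15253218 to 18025481 per mouse, and counts of the 9 genes made up 0.126% to 0.287% of them in WT and 0.0190% to 0.116% in MøFoxO1-KO mice. In whole liver, Foxo1 itself had 395, 459, 303 and 459 normalized counts in WT and 429, 302, 416 and 290 in MøFoxO1-KO mice, a log2 fold change of -0.17 ± 0.18 (SE, adjusted P = 0.686 by edgeR with Benjamini-Hochberg adjustment). The count of the whole gene in whole liver therefore does not separate the groups and does not check the deletion in myeloid cells. Xist had 0 to 6 counts and Ddx3y 846 to 1183 in every mouse, which is the pattern of male livers. All 9 hepatocyte markers found, Alb and Apoa1 among them, were present in all 8 mice. WT23 stood apart on the first principal component of all tested genes, with a coordinate of 0.706 against 0.0703 to 0.220 for the other WT mice. The same 2 members described below as called were called without WT23, and their values without it are given beside the result.

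The genes of the cluster fall into pairs of near-copies, and the sequences below show how alike they are, because a read from one copy can fit the other. Over the coding sequence, Cyp2a4 and Cyp2a5 were 98.45% identical (23 of 1485 bases differed), Cyp2a12 and Cyp2a22 were 96.96% identical (45 of 1479 bases), and Cyp2b9 and Cyp2b13 were 92.68% identical (108 of 1476 bases). Between a tested Cyp2a gene and a tested Cyp2b gene, identity was 61.15% to 64.32%. Stretches of 180 bases of coding sequence follow, taken from GENCODE M21 transcripts, 5′ to 3′, with every base that differs within the pair in capitals. They were chosen as the stretch with the most differences in each pair. The first pair shows bases 490 to 669 of the coding sequence of Cyp2a4 and Cyp2a5, with 7 differences. The second shows bases 1157 to 1336 of Cyp2a12 and Cyp2a22, with 11 differences. The third shows bases 579 to 758 of Cyp2b9 and Cyp2b13, with 24 differences.
Cyp2a4: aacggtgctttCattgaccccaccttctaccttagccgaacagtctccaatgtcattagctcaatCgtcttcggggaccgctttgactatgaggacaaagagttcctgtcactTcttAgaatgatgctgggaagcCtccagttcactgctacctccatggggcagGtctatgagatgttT
Cyp2a5: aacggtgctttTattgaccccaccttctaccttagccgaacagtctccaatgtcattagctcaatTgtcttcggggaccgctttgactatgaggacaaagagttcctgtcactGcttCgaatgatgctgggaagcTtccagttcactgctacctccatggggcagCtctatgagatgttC
Cyp2a12: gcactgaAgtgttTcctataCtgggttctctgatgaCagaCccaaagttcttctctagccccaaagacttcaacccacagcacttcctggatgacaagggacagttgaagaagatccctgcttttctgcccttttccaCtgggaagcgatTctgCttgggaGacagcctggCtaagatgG
Cyp2a22: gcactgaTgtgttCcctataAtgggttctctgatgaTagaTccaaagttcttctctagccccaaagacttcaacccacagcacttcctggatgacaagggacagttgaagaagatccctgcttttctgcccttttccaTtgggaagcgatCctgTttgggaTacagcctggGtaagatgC
Cyp2b9: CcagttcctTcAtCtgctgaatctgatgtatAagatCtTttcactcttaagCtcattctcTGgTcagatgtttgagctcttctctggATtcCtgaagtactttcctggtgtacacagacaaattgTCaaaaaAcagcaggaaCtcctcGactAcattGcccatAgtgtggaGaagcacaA
Cyp2b13: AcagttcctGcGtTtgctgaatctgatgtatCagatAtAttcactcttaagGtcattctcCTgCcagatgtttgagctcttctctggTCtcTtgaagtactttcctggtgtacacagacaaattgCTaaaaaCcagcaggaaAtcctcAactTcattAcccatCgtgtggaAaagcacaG

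Elsewhere the copies are identical over long runs, of up to 216 bases in Cyp2a4 and Cyp2a5, 206 in Cyp2a12 and Cyp2a22, and 113 in Cyp2b9 and Cyp2b13. Of all windows of 50 bases in the transcript, 61.99% were found in no other gene for Cyp2a4, 59.16% for Cyp2a5, 72.49% for Cyp2a12, 74.3% for Cyp2a22, 88.83% for Cyp2b9, 72.73% for Cyp2b13 and 89.79% for Cyp2b10. At 100 bases the unique share was between 85.63% (Cyp2a5) and 98.82% (Cyp2b9), and every window of Cyp2b10 was unique. Most windows of each Cyp2a gene can thus be assigned, while a read from a shared window of Cyp2a4 could equally be counted for Cyp2a5. How the counting treated such reads is not given in the sources used here, so the count of each copy is uncertain to that extent, and the part of shared reads in the differences was not tested. For Cyp2b13, the gene that shared most windows was Gm45225, which is annotated as a pseudogene.

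The promoters of the same pairs were compared in the same way. Of these, 2 pairs are shown because they share nearly all of their letters while the estimated log2 fold changes within each pair, given further on, differed. Unequal change within a pair was not established, since the adjusted P of the ratio was 0.257 for both pairs by exact permutation tests. RefSeq promoters on GRCm38.p6 were found for all 9 genes. Over the 250 bases before the annotated start, Cyp2b9 and Cyp2b13 differed at 2 bases (99.2% identical), Cyp2a4 and Cyp2a5 at 4 aligned bases (98.39%), and Cyp2a12 and Cyp2a22 at 23 of 239 aligned bases (90.38%). The promoters are written on the strand of the gene, 5′ to 3′, with capitals at each base that differs within the pair or lies opposite no base. They lie at chr7:26306942-26307191 (Cyp2a4), chr7:26835089-26835338 (Cyp2a5), chr7:26173159-26173408 (Cyp2b9) and chr7:26061245-26061494 (Cyp2b13), all on the plus strand.
Cyp2a4 promoter: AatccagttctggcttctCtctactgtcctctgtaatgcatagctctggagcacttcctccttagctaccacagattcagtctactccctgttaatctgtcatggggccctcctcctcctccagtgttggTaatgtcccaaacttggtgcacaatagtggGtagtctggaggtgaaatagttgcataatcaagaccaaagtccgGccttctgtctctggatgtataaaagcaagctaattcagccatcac
Cyp2a5 promoter: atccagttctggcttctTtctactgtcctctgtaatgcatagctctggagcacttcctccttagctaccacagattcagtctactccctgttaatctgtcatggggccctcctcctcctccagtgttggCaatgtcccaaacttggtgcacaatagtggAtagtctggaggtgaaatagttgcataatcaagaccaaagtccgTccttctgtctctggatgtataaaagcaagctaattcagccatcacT
Cyp2b9 promoter: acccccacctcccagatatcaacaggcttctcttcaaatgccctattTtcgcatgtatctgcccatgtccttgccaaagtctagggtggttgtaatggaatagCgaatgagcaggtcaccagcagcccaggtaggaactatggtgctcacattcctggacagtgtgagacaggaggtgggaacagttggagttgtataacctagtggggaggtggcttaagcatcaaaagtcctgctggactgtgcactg
Cyp2b13 promoter: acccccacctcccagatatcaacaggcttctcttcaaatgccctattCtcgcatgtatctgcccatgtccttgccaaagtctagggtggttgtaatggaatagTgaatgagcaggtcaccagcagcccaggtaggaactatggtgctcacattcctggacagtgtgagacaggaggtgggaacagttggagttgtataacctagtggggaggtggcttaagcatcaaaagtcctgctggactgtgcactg

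Both strands of the 9 promoters were searched for 4 short motifs. The STAT5 motif TTCNNNGAA, the forkhead motif GTAAACA and the HNF4 motif CAAAGTCCA were each found in 0 of 9, against 7.02%, 3.17% and 0.384% of 32851 promoters of the same length. The nuclear receptor motif AGGTCA was found in 4 of 9, namely Cyp2b9, Cyp2b13, Cyp2b19 and Cyp2b23, against 14.0% of all promoters. In Cyp2b9 and Cyp2b13 it stood at the same place, between positions -138 and -133 from the start. All 4 matches have the same letters on both sides, and these 4 promoters were 74.24% to 99.2% identical to each other. They are therefore not independent matches, and 4 of 9 cannot be read as more than the share of all promoters. A match is a description of letters in this window and not a site shown to be bound.

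To determine whether transcripts of the cluster differed between MøFoxO1-KO and WT livers, counts were normalized by the trimmed mean of M values (TMM) and tested with edgeR over all 13278 genes that passed a filter on low counts. To be called, a gene needed both an adjusted P below 0.05 and a log2 fold change beyond 1.5 in either direction. Cyp2a4 and Cyp2a22 were called lower in MøFoxO1-KO mice, and no member was called higher. That is 2 of 7 tested members, beside 0.136% of all tested genes called lower. Their log2 fold changes were -3.35 ± 0.40 for Cyp2a4 and -2.68 ± 0.30 for Cyp2a22 (SE, n = 4 mice a group). All 7 tested members had a negative log2 fold change, between -3.46 and -0.50, beside 51.7% of all genes, and each stayed negative under every scaling and test tried and with any 1 mouse left out. Their median was -1.53, and that of all genes was -0.01. An unadjusted P under 0.05 was obtained for 5 of the 7 (8.06% of all genes, lower), and the groups did not overlap for 2 of the 7 (4.71% of all genes, lower). In whole liver, fewer cells of a type and less RNA per cell cannot be told apart. The labels do not give the litter or handling of the mice. A difference in either between the groups could not be told apart from genotype here. The P values set the group difference against the spread between these mice.

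**Figure D1:**
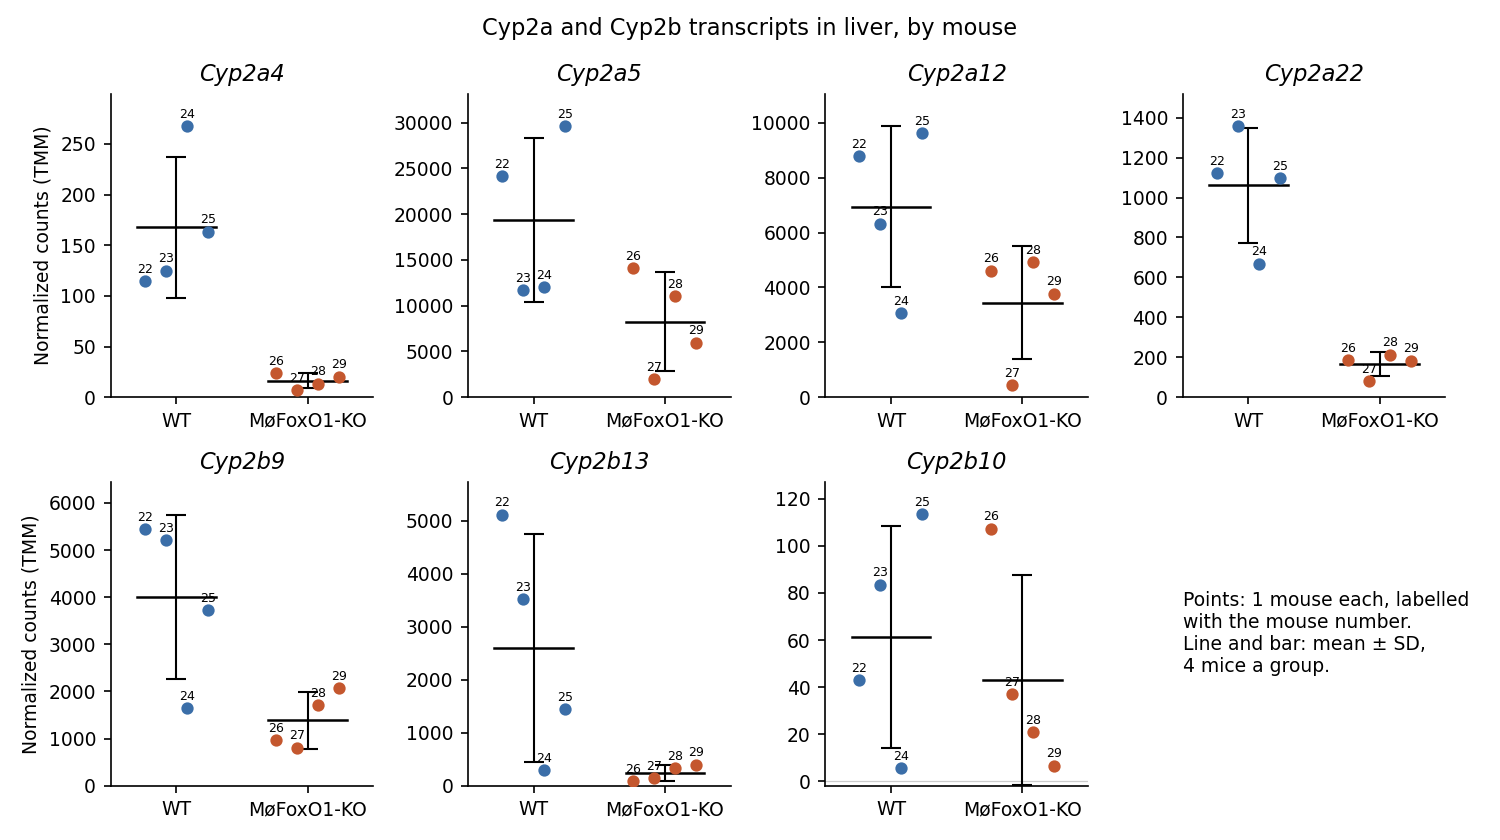
Normalized counts (TMM, linear axes) of the 7 tested genes in each of the 4 WT (blue) and 4 MøFoxO1-KO (orange) mice, 1 point per mouse with its number, with the group mean as a line and the SD as a bar. The groups are apart for Cyp2a4 (114 to 268 against 7.17 to 23.96) and Cyp2a22 (668 to 1358 against 78.8 to 214) and overlap in the other 5 panels.

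Cyp2a4 (ENSMUSG00000074254, chr7:26307190-26315088, plus strand) encodes a steroid hydroxylase. It had 114, 125, 268 and 163 normalized counts in WT22 to WT25 and 23.96, 7.17, 13.3 and 20.2 in KO26 to KO29. Every WT mouse stood above every MøFoxO1-KO mouse, and the lowest WT value was 114 against a highest MøFoxO1-KO value of 23.96. The means were 168 ± 69.99 and 16.1 ± 7.44 (SD, n = 4), a WT mean 10.4 times the MøFoxO1-KO mean. The adjusted P by edgeR was 0.0147, and an exact two-sided permutation test of the normalized counts gave P = 0.0286, the smallest that 4 against 4 mice allow. The counts behind these values were low in MøFoxO1-KO mice, at 25, 6, 14 and 18 reads. Without WT23 the log2 fold change was -3.47 (adjusted P = 0.0241 by edgeR), and without WT25 it was -3.37 with an adjusted P of 0.0513, which misses the threshold.

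Cyp2a5 (ENSMUSG00000005547, chr7:26835305-26843548, plus strand), the hydroxylase of coumarin and nicotine, was the most abundant member. Its normalized counts were 24154, 11678, 12029.7 and 29629.5 in WT22 to WT25 and 14124, 1961, 11007 and 5966 in KO26 to KO29. The groups overlapped, since KO26 stood above WT23 and WT24. The means were 19373 ± 8967 and 8264 ± 5381 (SD, n = 4), and the log2 fold change of -1.23 ± 0.53 had an adjusted P of 0.282 by edgeR and an exact permutation P of 0.114. Within MøFoxO1-KO mice, the highest value was 7.20 times the lowest.

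Cyp2a4 had far fewer reads than Cyp2a5. Counts of Cyp2a4 were 0.473%, 1.07%, 2.22% and 0.551% of those of Cyp2a5 in WT22 to WT25 and 0.170%, 0.365%, 0.121% and 0.338% in KO26 to KO29. This percentage was lower in each MøFoxO1-KO mouse than in any WT mouse, by little between WT22 and KO27, and its test among the pairs of members is given further on. When the counts of both genes were summed as 1 gene, the log2 fold change was -1.24 with an adjusted P of 0.278 by edgeR, which is near that of Cyp2a5 alone.

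Cyp2a22 (ENSMUSG00000091867, chr7:26931631-26939386, minus strand) had 1120.4, 1358, 668 and 1098 normalized counts in WT22 to WT25 and 184, 78.8, 214 and 182 in KO26 to KO29. The groups did not overlap, with 668 in the lowest WT mouse and 214 in the highest MøFoxO1-KO mouse. The means were 1061 ± 287 and 165 ± 59.0 (SD, n = 4), a WT mean 6.44 times the MøFoxO1-KO mean. By edgeR the adjusted P was 0.0136, and by the exact permutation test P was 0.0286. By unadjusted P it ranked number 3 of all tested genes, and Cyp2a4 ranked number 6. Without WT23 the log2 fold change was -2.54 (adjusted P = 0.0241 by edgeR), and without WT25 it was -2.67 with an adjusted P of 0.0513. The counts behind these values were 66 to 225 reads in MøFoxO1-KO mice, more than for Cyp2a4.

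Cyp2a12 (ENSMUSG00000060407, chr7:27029090-27036807, plus strand), a hydroxylase of testosterone, is the near-copy of Cyp2a22. It had 8772, 6321, 3067 and 9612 normalized counts in WT22 to WT25 and 4613, 435, 4919 and 3774 in KO26 to KO29. WT24 lay below KO26, KO28 and KO29, and KO27 lay far below every other mouse. The means were 6943 ± 2937 and 3435 ± 2058 (SD, n = 4), and the log2 fold change was -1.01 ± 0.60 with an adjusted P of 0.428 by edgeR and an exact permutation P of 0.143. Summed with Cyp2a22, it gave -1.15 (adjusted P = 0.347 by edgeR).

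Cyp2b9 (ENSMUSG00000040660, chr7:26173411-26210661, plus strand) had 5444, 5209.5, 1647 and 3726 normalized counts in WT22 to WT25 and 959.5, 809, 1714 and 2068 in KO26 to KO29. WT22, WT23 and WT25 stood above all MøFoxO1-KO mice, and WT24 lay below KO28 and KO29. The means were 4007 ± 1747 and 1387 ± 602 (SD, n = 4), with a log2 fold change of -1.53 ± 0.40, an adjusted P of 0.131 by edgeR and an exact permutation P of 0.0857. With DESeq2 the adjusted P was 0.00398, and with edgeR on all genes with at least 1 count it was 0.0348.

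Cyp2b13 (ENSMUSG00000040583, chr7:26061495-26096196, plus strand) varied widely among WT mice. It had 5116, 3520.2, 291 and 1439 normalized counts in WT22 to WT25, a 17.6-fold range, and 81.5, 139, 327 and 394 in KO26 to KO29. The same WT mice as for Cyp2b9 stood above all MøFoxO1-KO mice, and WT24 again lay below KO28 and KO29. The means were 2591 ± 2149 and 235 ± 149 (SD, n = 4), and the WT mean was 11.01 times the MøFoxO1-KO mean. Its log2 fold change of -3.46 ± 0.80 was the lowest of the members, but the adjusted P was 0.107 by edgeR and the exact permutation P was 0.0857. Without WT24 the log2 fold change was -3.84 (adjusted P = 0.0438 by edgeR), and with DESeq2 over all mice the adjusted P was 0.00513. DESeq2 called 4 members lower, beside 0.565% of all genes, and limma-voom called 2, beside 0.0603%.

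Cyp2b10 (ENSMUSG00000030483, chr7:25897620-25926624, plus strand) had few reads and no common direction. Its normalized counts were 43.1, 83.6, 5.54 and 113 in WT22 to WT25 and 107, 37.0, 20.9 and 6.72 in KO26 to KO29. Each group held mice near the top and near the bottom of the range. The means were 61.4 ± 47.1 and 43.0 ± 44.7 (SD, n = 4), and the log2 fold change was -0.50 ± 0.84 (adjusted P = 0.805 by edgeR, exact permutation P = 0.629). It was -1.51 without KO26 and -0.03 without WT25, and was not called in any of these fits. Cyp2b19 (ENSMUSG00000066704, chr7:26757163-26772630), known from the epidermis, and Cyp2b23 (ENSMUSG00000040650, chr7:26665227-26686437) had 0 counts in all 8 mice. A count of 0 allows up to 3 counts per library, or 0.166 to 0.197 CPM (counts scaled to library totals), for counting error only.

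The order of the genes along the chromosome was compared with their changes. The members span 1139 kb, from Cyp2b10 to Cyp2a12. Cyp2b13, Cyp2b9 and Cyp2a4 lie next to each other with log2 fold changes of -3.46, -1.53 and -3.35, and Cyp2a4 is separated from Cyp2a5 by Cyp2b23, Cyp2b19 and Cyp2g1. Between the outermost members the table holds 10 other genes, of which 8 had no count in any mouse. Another, within the span of Cyp2b13, had 4, 3, 6 and 1 counts in WT22 to WT25 and 0 in each MøFoxO1-KO mouse, too few to test. Only 1 of the 10 was tested. That gene was Cyp2g1, best known from the olfactory mucosa, with 20.2 ± 14.8 and 14.9 ± 12.7 normalized counts and a log2 fold change of -0.40 ± 0.76 (adjusted P = 0.83 by edgeR). Within 300 kb beyond the members, the whole window held 44 other genes, of which 21 were tested and 0 were called. At an unadjusted P under 0.05 by edgeR, 2 of these 21 were higher (8.65% of all genes) and 1 lower (8.06% of all genes). Their median log2 fold change was 0.07 (12 positive, 9 negative), and -0.08 when counts were scaled by library totals alone (8 positive, 13 negative). DESeq2 and limma-voom also called 0 of the 21.

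**Figure D2:**
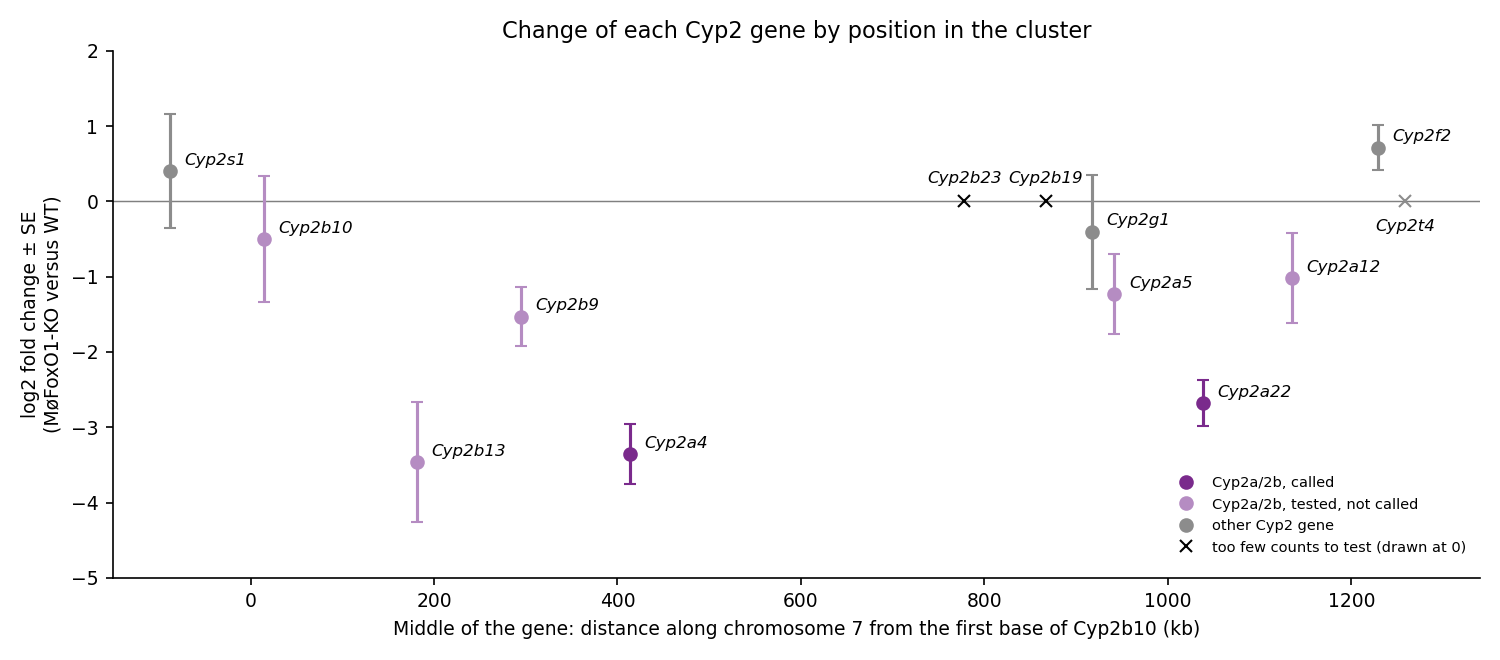
Log2 fold change (MøFoxO1-KO versus WT, edgeR, bar = SE) of each Cyp2 gene against the distance of its middle from the first base of Cyp2b10 in kb. Called members are dark purple, other tested members light purple, other Cyp2 genes grey, and genes with too few counts are crosses drawn at 0. The 2 called genes, Cyp2a4 (-3.35) and Cyp2a22 (-2.68), are neighbours of genes with smaller changes, such as Cyp2b9 (-1.53) and Cyp2a12 (-1.01).

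None of the other Cyp2 genes at the edges of the cluster was called. Cyp2f2, a lung and liver enzyme with periportal expression, had 5792, 13793, 5501 and 5383 normalized counts in WT22 to WT25 and 12927, 15111, 10859 and 11068 in KO26 to KO29. WT23 lay among the MøFoxO1-KO mice and the other WT mice lay below all of them. Its log2 fold change was 0.71 ± 0.30 with an adjusted P of 0.274 by edgeR. Cyp2s1 had 1.87 to 32.5 normalized counts and a log2 fold change of 0.40 ± 0.76 (adjusted P = 0.83 by edgeR). Cyp2t4 had 3 to 14 counts and was not tested.

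To compare levels between genes, normalized counts were divided by exon length (RPKM, here from TMM library sizes). In WT, the order was Cyp2a5 (570 ± 264), Cyp2a12 (256 ± 108), Cyp2b9 (130.2 ± 56.8), Cyp2b13 (84.2 ± 69.8), Cyp2a22 (29.1 ± 7.86), Cyp2a4 (5.95 ± 2.48) and Cyp2b10 (1.77 ± 1.36, SD, n = 4). The ranges of neighbours in that order overlapped except between Cyp2a22 and Cyp2a4 and between Cyp2a4 and Cyp2b10. In MøFoxO1-KO mice, the order was Cyp2a5 (243 ± 158), Cyp2a12 (126 ± 75.7), Cyp2b9 (45.1 ± 19.6), Cyp2b13 (7.65 ± 4.84), Cyp2a22 (4.51 ± 1.62), Cyp2b10 (1.24 ± 1.29) and Cyp2a4 (0.573 ± 0.264). Here only Cyp2b9 and Cyp2b13 did not overlap. The order was thus alike in both groups, apart from Cyp2a4, which stood above Cyp2b10 in each WT mouse and below it in 3 of 4 MøFoxO1-KO mice. Within every mouse of either group, Cyp2a5 was above Cyp2a12 and Cyp2b9 was above Cyp2b13.

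Summed over the cluster, normalized counts were 44764, 28294, 17976 and 45781 in WT22 to WT25 and 20093, 3466, 18215 and 12410.4 in KO26 to KO29. The sums overlapped, with WT24 below KO26 and KO28, and the means were 34204 ± 13464 and 13546 ± 7474 (SD, n = 4, exact permutation P = 0.0857). Cyp2a5 held 41.3% to 66.9% of the counts of the 9 genes in WT and 48.1% to 70.3% in MøFoxO1-KO mice, so the sum mostly follows that gene. Cyp2a12 held 17.1% to 22.3% and 12.5% to 30.4%, and Cyp2b9 held 8.14% to 18.4% and 4.78% to 23.3%. The share of Cyp2b13 was 1.62% to 12.4% in WT and 0.405% to 4.00% in MøFoxO1-KO mice. The 2 called genes were minor parts of the sum. Cyp2a22 had a share of 2.40% to 4.80% in WT and 0.916% to 2.27% in MøFoxO1-KO mice, and Cyp2a4 had 0.255% to 1.49% and 0.0729% to 0.207%. For both of them, and for no other member, the shares of the groups did not overlap.

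**Figure D3:**
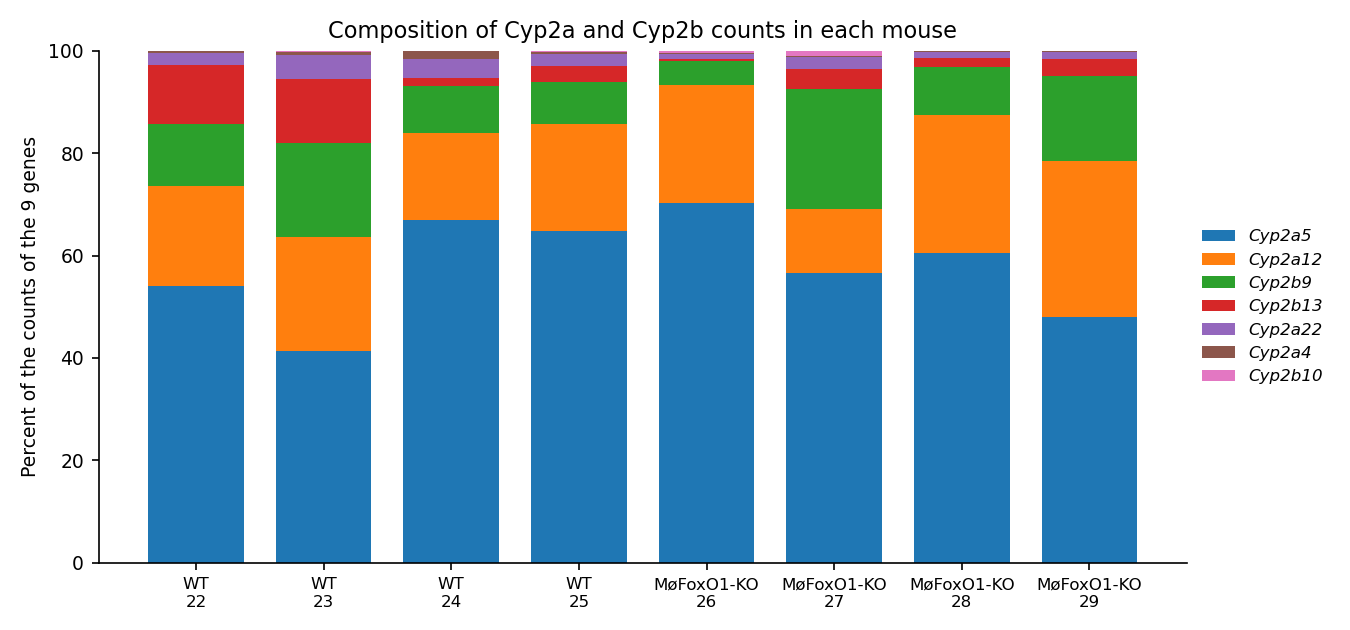
Stacked bars of the percent of the counts of the 9 genes held by each gene, 1 bar per mouse (axis from 0 to 100%; Cyp2b19 and Cyp2b23 had no counts). Cyp2a5 is the largest part in every mouse, at 41.3% to 70.3%, while Cyp2a4 and Cyp2a22 are thin bands near the top in WT that are thinner in MøFoxO1-KO mice.

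Whether paralogs changed by unlike amounts was tested with the log2 ratio of 2 members within each mouse, which does not depend on library size. Ratios of all 21 pairs of tested members were compared by exact two-sided permutation tests. No pair had an adjusted P under 0.05 over the 21 pairs by the Benjamini-Hochberg method. The smallest exact permutation P for 4 against 4 mice is 0.0286. Over 21 pairs it gives an adjusted P under 0.05 only if most pairs reach it. The lack of such a pair therefore does not show that ratios were equal. The groups did not overlap for 2 pairs. The first was the near-identical pair of Cyp2a4 and Cyp2a5. Its log2 ratio was -7.72, -6.54, -5.49 and -7.50 in WT22 to WT25 and -9.17, -7.98, -9.64 and -8.17 in KO26 to KO29. The gap was small, since WT22 and KO27 differed by 0.26, while the means differed by -1.93 (-6.81 ± 1.02 against -8.74 ± 0.80, exact P = 0.0286, adjusted P = 0.257). With 5 in place of 0.5 added to each count, the difference was -1.55 and the groups overlapped (exact P = 0.114).

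The second pair was Cyp2a22 and Cyp2b9, with log2 ratios of -2.28, -1.94, -1.30 and -1.76 in WT and -2.38, -3.35, -3.00 and -3.50 in MøFoxO1-KO mice. WT22 and KO26 differed by only 0.10, and the means differed by -1.24 (-1.82 ± 0.41 against -3.06 ± 0.50, exact P = 0.0286, adjusted P = 0.257). For Cyp2a12 and Cyp2a22, the log2 ratio was 2.20 to 3.13 in WT and 4.64, 2.45, 4.52 and 4.37 in KO26 to KO29. KO27 fell among the WT mice and the others lay above them (difference 1.37, exact P = 0.0857). For Cyp2b9 and Cyp2b13, whose promoters differ at 2 bases, the ratio was 0.09, 0.57, 2.50 and 1.37 in WT and 3.55, 2.54, 2.39 and 2.39 in MøFoxO1-KO mice (difference 1.58, exact P = 0.0857). WT24 lay among the MøFoxO1-KO mice here. Cyp2a5 and Cyp2a12 are less alike in sequence, yet their ratio differed by -0.08 between the means (1.49 ± 0.45 against 1.40 ± 0.64, exact P = 0.80). Differences between single MøFoxO1-KO and WT mice in this ratio ran from -1.31 to 1.29, so that an unequal change within that range cannot be told from an equal one here.

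**Figure D4:**
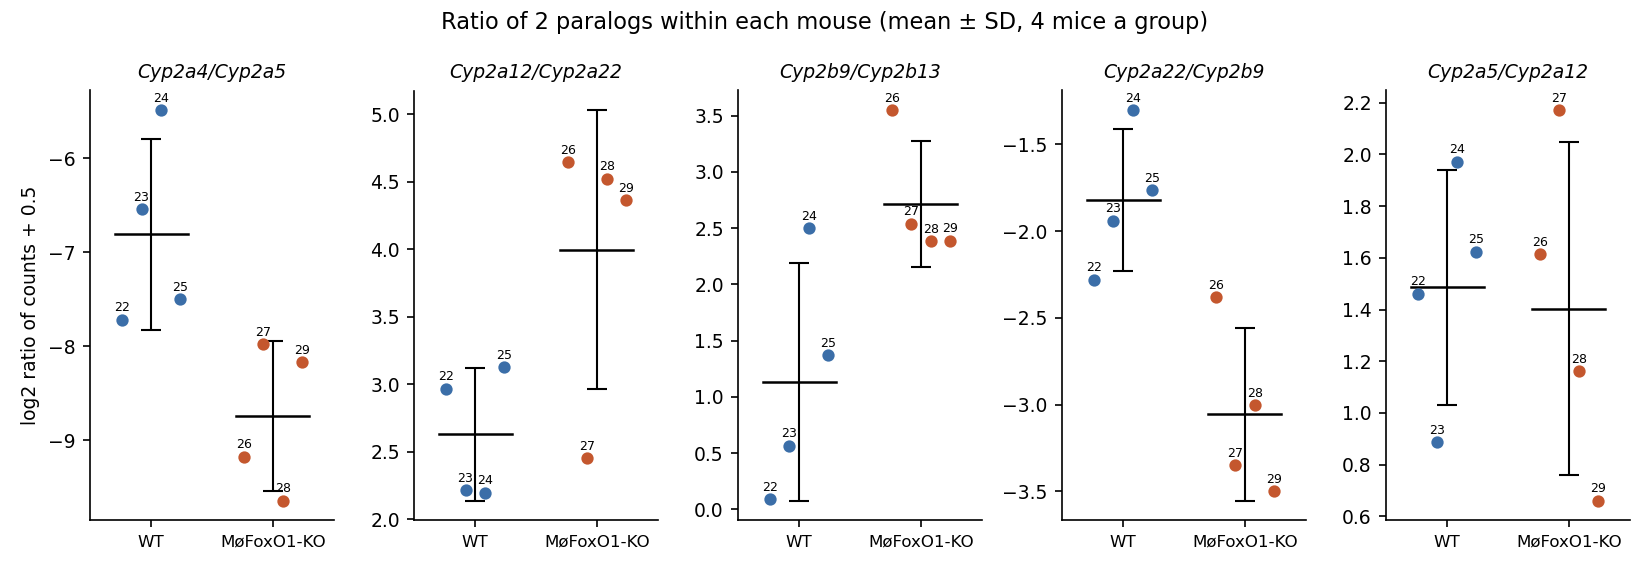
Log2 ratio of counts (0.5 added to each) of 2 paralogs within each mouse for 5 of the 21 pairs, in WT (blue) and MøFoxO1-KO (orange) mice, with mean and SD (n = 4). The groups are apart for Cyp2a4/Cyp2a5 and Cyp2a22/Cyp2b9, 1 mouse keeps the groups from being apart for Cyp2a12/Cyp2a22 (KO27) and Cyp2b9/Cyp2b13 (WT24), and the groups cover each other for Cyp2a5/Cyp2a12.

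Single mice stood out across the members. WT24 was the lowest WT mouse for 5 of 7 members and the highest for Cyp2a4. KO27 was the lowest MøFoxO1-KO mouse for 5 of 7 members, and its total for the cluster was 3466 normalized counts against 12410.4 to 20093 in the other MøFoxO1-KO mice. Without KO27, Cyp2a4 and Cyp2a22 had log2 fold changes of -3.12 and -2.45 (adjusted P = 0.0459 and 0.0327 by edgeR), and those of Cyp2a5 and Cyp2a12 were -0.90 and -0.64. Leaving out each mouse in turn, Cyp2a4 and Cyp2a22 were each called in 7 of 8 fits, Cyp2b13 in 1 of 8, and Cyp2a5, Cyp2a12, Cyp2b9 and Cyp2b10 in 0 of 8.

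The genes whose pattern over the 8 mice was most like each member were found by the root mean square difference of centred log2 CPM, where 0 is an identical pattern. For Cyp2a22 these were the organic anion transporters Slc22a27 (0.201) and Slc22a29 (0.344), then Nt5e (0.348), Cyp2c38 (0.415) and Rcan2 (0.419). For Cyp2a4 they were Cyp2a22 (0.629), Anxa5 (0.638), Slc22a26 (0.645), Gpnmb (0.653) and Slc22a27 (0.683). Cyp2a5, the near-copy of Cyp2a4 in sequence, was number 133 for Cyp2a4, at a difference of 1.09. In the other direction, Cyp2a4 was number 3187 for Cyp2a5. Cyp2a5 and Cyp2a12 were closest to each other among all 13278 genes, at 0.480. The nearest gene to Cyp2b9 was Fam171b (0.411), to Cyp2b10 Acot11 (0.582) and to Cyp2b13 Nt5e (1.00), and Cyp2b9 was number 6 for Cyp2b13. These are descriptions over 8 mice that share the group difference.

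Because several members are known as female-biased genes, lists of other sex-biased liver genes were set beside them. These lists were chosen with earlier results of these data known, and the paper reports some of their genes as changed in these livers. Their counts and directions are therefore a description and not independent support for a sex-biased pattern. Of 20 female-biased genes, 10 had enough reads, and 4 were called lower (0.136% of all genes) and 0 higher by edgeR (5 lower by DESeq2, 2 by limma-voom). All 10 tested had a negative log2 fold change (median -2.59), beside 51.7% of all genes. A gene could pass the filter through the WT mice alone, so this common direction is partly set by the filter. Without the filter, 18 had counts, of which 16 were negative and 2 positive. The 4 genes called lower by edgeR with the filter were Hao2 (-5.12), which encodes a peroxisomal hydroxyacid oxidase, Cyp39a1 (-3.47), an oxysterol hydroxylase, and the transporters Slc22a26 (-3.05) and Slc22a27 (-2.87). Slc22a27, the gene most like Cyp2a22 above, had 359.7, 297, 161 and 319.6 normalized counts in WT22 to WT25 and 41.2, 20.3, 56.0 and 35.8 in KO26 to KO29. Its lowest WT mouse was WT24 and its lowest MøFoxO1-KO mouse was KO27, which its likeness to Cyp2a22 already implies. Hao2 was lowest in the same mice. Within their groups, Cyp39a1 was highest in WT24 and lowest in KO27, and Slc22a26 was lowest in WT23 and KO26. Of 21 male-biased genes, all were tested, 6 were called higher (0.0527% of all genes) and 0 lower by edgeR (13 higher by DESeq2, 4 by limma-voom), and all 21 had a positive log2 fold change (median 2.07), 20 of 21 when counts were scaled by library totals alone. They were Hsd3b5 (6.64), a steroid dehydrogenase, the oxysterol hydroxylase Cyp7b1 (2.07), the complement genes Susd4 (2.59) and C8b (1.74), and the urinary proteins Mup1 (3.10) and Mup12 (3.61). The Mup genes are near-identical copies, so their single counts are uncertain. Hsd3b5 had 12.2, 2.95, 45.2 and 30.9 normalized counts in WT22 to WT25 and 3756, 3459.95, 1175 and 775 in KO26 to KO29, and WT24 was the highest WT mouse.

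Known regulators of these enzymes and other target lists were looked at in the same fit. None of 21 regulators was called by edgeR, DESeq2 or limma-voom (median -0.17). Of the 21 regulators, 2 were lower (8.06% of all genes) and 0 higher (8.65% of all genes) at an unadjusted P under 0.05 by edgeR. Among those farthest from 0 were Stat5a, a growth hormone signal transducer (-0.79 ± 0.16, adjusted P = 0.0851), and Cux2 (-0.74 ± 0.58, adjusted P = 0.566, both by edgeR). Stat5a had 280.1, 391, 278 and 297 normalized counts in WT and 199, 160.0, 203 and 156 in MøFoxO1-KO mice, with no overlap. The groups did not overlap for 2 of 21 regulators (4.71% of all genes, lower). The other was Stat5b, with a log2 fold change of -0.31 ± 0.14 (adjusted P = 0.315 by edgeR). The xenobiotic receptors CAR (Nr1i3, -0.03 ± 0.25) and PXR (Nr1i2, -0.16 ± 0.11) had values near 0. Of 19 tested targets of CAR and PXR other than the members, 0 were called by edgeR (median -0.18), DESeq2 called 1 (Gstm3) and limma-voom 0. At an unadjusted P under 0.05 by edgeR, 2 of these 19 were higher (8.65% of all genes) and 4 lower (8.06% of all genes). The farthest from 0 by edgeR were Gstm3 (-2.41), Cyp2c54 (0.87) and Gadd45b (-0.67). Of 9 tested NRF2 targets, 0 were called by any of these tools (median -0.49), and 8 of 9 had a negative log2 fold change. At an unadjusted P under 0.05 by edgeR, 0 of these 9 were higher and 5 lower, beside 8.06% of all genes lower. The farthest were Gsta1 (-1.46), Ces1g (-1.40) and Nqo1 (-1.22 ± 0.21, adjusted P = 0.052 by edgeR). Genes of the pericentral zone, where many P450 enzymes are made, had a median of 0.02, and periportal genes had a median of 0.06. In each of these lists, 11 genes were tested and 0 were called by the same tools. At an unadjusted P under 0.05 by edgeR, 1 pericentral gene was higher and 1 lower, and 1 periportal gene was higher (all genes: 8.65% higher, 8.06% lower). Both medians were negative when counts were scaled by library totals alone. Cux2 and Bcl6 stand in a sex-biased list and among the regulators, and Por among the regulators and the CAR and PXR targets.

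**Figure D5:**
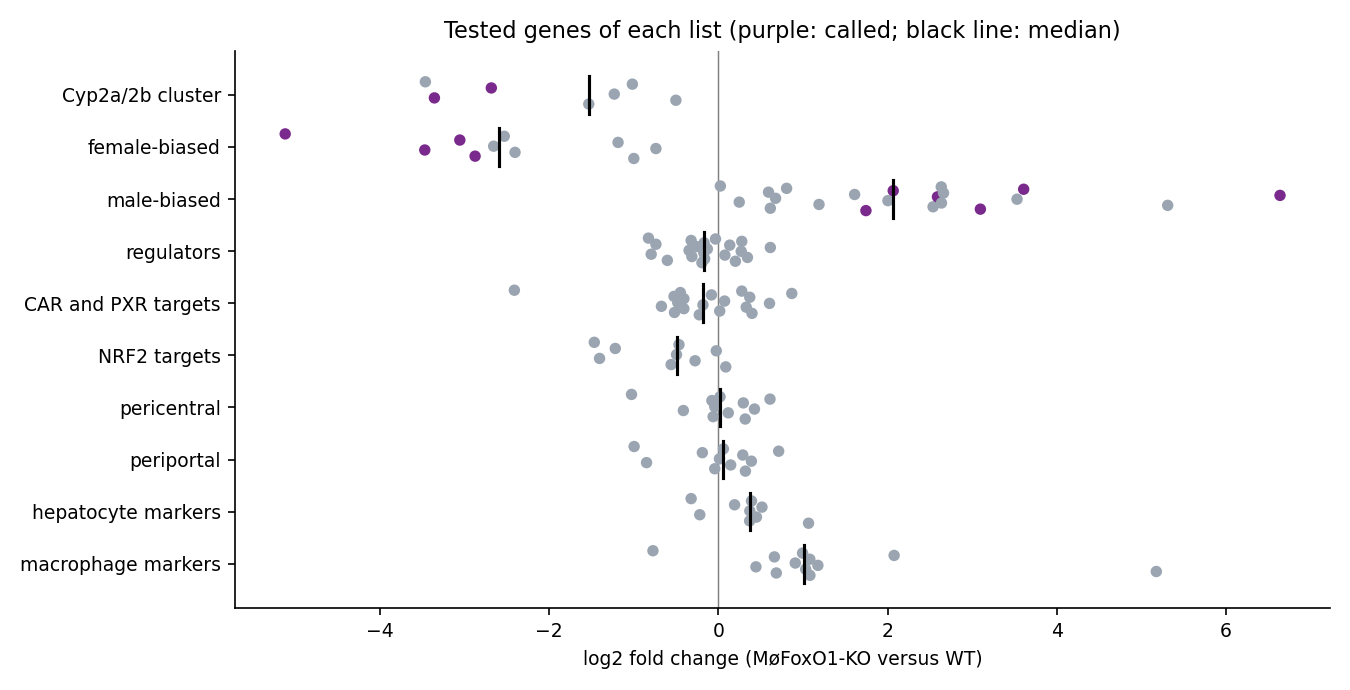
Log2 fold change (MøFoxO1-KO versus WT, edgeR) of each tested gene of 10 lists, 1 point per gene, called genes in purple and the list median as a black line. The members (median -1.53) and female-biased genes (median -2.59) lie left of 0 and male-biased genes (median 2.07) right of 0. Regulators, zonation genes and CAR and PXR targets lie on both sides of 0. Of the NRF2 targets (median -0.49), 8 of 9 lie left of 0.

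Markers of cell types were measured beside these results. The summed normalized counts of the 9 hepatocyte markers were 1265850 to 1695290 in WT and 1531420 to 2169950 in MøFoxO1-KO mice. Of the 9, 0 were called by edgeR, DESeq2 or limma-voom (median 0.37). At an unadjusted P under 0.05 by edgeR, 3 were higher (8.65% of all genes) and 0 lower (8.06% of all genes). The sums of the 12 macrophage markers were 4256 to 7613 in WT and 5098 to 22275 in MøFoxO1-KO mice, with 11 of 12 log2 fold changes positive, a median of 1.01 and no marker at 0 in all mice. None was called by edgeR or limma-voom (7 higher at an unadjusted P under 0.05 by edgeR, beside 8.65% of all genes), and DESeq2 called Marco and Timd4 higher. The scavenger receptor Marco had 4.92 to 81.2 normalized counts in WT and 737, 2712, 66.4 and 2119 in KO26 to KO29 (adjusted P = 0.087 by edgeR). In KO26 to KO29, macrophage sums were 7533, 14435, 5098 and 22275, and sums of the members were 20093, 3466, 18215 and 12410.4 normalized counts. In the same order, Cyp2a4 had 23.96, 7.17, 13.3 and 20.2 normalized counts and Cyp2a22 had 184, 78.8, 214 and 182. Medians were -0.23 for 5 cholangiocyte, 0.02 for 6 stellate and 0.24 for 5 endothelial markers, with 0 called in each by edgeR, DESeq2 or limma-voom. At an unadjusted P under 0.05 by edgeR, 0 cholangiocyte, 2 stellate and 0 endothelial genes were lower (8.06% of all genes) and none higher (8.65% of all genes). Under scaling by library totals alone the stellate median was -0.13. The part of these cell type differences in the member results was not tested.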

How the data were processed

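Polyadenylated RNA of whole liver was sequenced for 8 mice, and 1 library was made per mouse. The authors deposited raw read counts per Ensembl gene, without normalization. The processing notes name STAR, featureCounts and mm10. Versions, strandedness and the handling of multi-mapped reads are not given in the sources used here. Counts per library totalled 15253218 to 18025481, and this depth limits precision for genes with few counts.

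Groups were taken from the genotype in the labels. Symbols came from GENCODE M21. Genes were filtered with filterByExpr (minimum count 10, minimum total 15), normalized by TMM and tested in edgeR 4.0.16 (quasi-likelihood F test, R 4.3.3, genotype as the single term) over 13278 genes. P values were adjusted after Benjamini and Hochberg (called: below 0.05 with a log2 fold change beyond 1.5 either way). For single values, two-sided exact permutation tests were run with scipy 1.17.1. The smallest P is 0.0286 for 4 against 4 mice and 0.0571 for 3 against 4. RPKM used TMM library sizes and the exon length of the table. Alternatives were DESeq2 1.42.0, limma-voom (limma 3.58.1), other scalings and filters, the robust fit, summed near-copies, another pseudocount and leaving out each mouse. Scripts were tested on simulated data.

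The members and gene lists were chosen with earlier results of these data known. The text names all members, other Cyp2 genes within 300 kb, called genes of a list or else its 3 farthest from 0, the 5 genes most like each called member (for others, the nearest), Foxo1 and sex-chromosome genes. Of the 10 hepatocyte markers listed, 1 symbol was not found. Slc22a27, Hsd3b5 and Stat5a were given per mouse, and Stat5b was named, after their values were seen. Of the genes that this rule names, 1 is not reported here.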

Additional observations from a re-analysis of the deposited data

Results flagged for a closer look

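In a group of 4 mice, a mouse was marked when its gap to the nearest other mouse took a larger part of the range of the group than Dixon's 95% limit allows. Of 78 groups of values looked at, 5 were marked, and chance marks about 1 in 20. WT23 stood above the other WT mice for Cyp2f2 normalized counts (0.951 of the range). WT24 had the highest share of Cyp2a4 among WT mice (0.849). KO26 had the highest log2 ratio of Cyp2a4 to Cyp2b13 (0.855) and of Cyp2b9 to Cyp2b13 (0.868) among MøFoxO1-KO mice. KO27 had the lowest log2 ratio of Cyp2a12 to Cyp2a22 (0.873).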

How the results depend on the processing

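Against 25 genes called over the whole table, DESeq2 called 144, edgeR without a filter on low counts 120, limma-voom 13, and the adjusted P alone 39. Leaving out 1 mouse gave 3 (without WT25) to 82 (without KO28), with 15 without WT22, 9 without KO26, 7 without KO27 and 13 without KO29. Of the members, 2 were called, 4 by DESeq2 and without a filter, and 1 when at least 10 counts were required in every mouse, because Cyp2a4 then left the test. Without 1 mouse, 0 (without WT25) to 3 were called. Cyp2a4 missed the threshold without WT25 (-3.37, adjusted P = 0.0513 by edgeR), with a range of -3.61 to -3.03 without 1 mouse. Cyp2a22 did so without WT25 (-2.67, adjusted P = 0.0513 by edgeR), with a range of -2.85 to -2.45. The sum of Cyp2a4 with Cyp2a5 (-1.24) and that of Cyp2a22 with Cyp2a12 (-1.15) were not called either. Each sum mostly follows the far more abundant copy, Cyp2a5 or Cyp2a12, so it cannot test Cyp2a4 or Cyp2a22. Cyp2b9 and Cyp2b13 were called by DESeq2 (-1.52 and -3.45) and without a filter (-1.55 and -3.48), and Cyp2b13 also without WT24 (-3.84). Their ranges without 1 mouse were -1.79 to -1.33 and -3.84 to -2.90. The cause was not tested. Of pairs of members, 2 did not overlap, 1 with a pseudocount of 5 and 2 to 5 without 1 mouse (5 without KO27). With a pseudocount of 5, the difference of the log2 ratio of Cyp2a4 to Cyp2b13 turned from -0.30 to 0.05, and that of Cyp2a4 to Cyp2a5 was -1.55. Scaling by library totals alone moved the median of all genes by -0.15. No paired analysis was possible because the groups share no replicate numbers.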
